A study of Mus musculus with 2 samples.

Results

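Most CpG cytosines of the mouse genome are methylated, and the main exceptions are CpG-dense promoters and islands, which stay unmethylated in most cells. Target-enriched bisulfite libraries are pulled down with baits that favour islands, promoters and regulatory regions on a chosen strand, so reads that fall elsewhere are few. The cytosines described here are the thinly read ones. They are the CpG cytosines on chromosomes 1 to 19 that both libraries listed with 1 to 4 reads each. There were 782003 of them, 20.4% of the 3837327 autosomal cytosines listed in both libraries, in a series that lists 7818148 cytosines in all. They were chosen by coverage, not by methylation level. At this depth a single cytosine has no usable level, so methylated calls and all calls were summed over cytosines, and a level is the percent of summed calls read as C. Bisulfite turns unmethylated C into a base read as T, and leaves methylated and hydroxymethylated C unchanged.

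The DNA came from hippocampus, the memory-forming region under the temporal cortex, of C57BL/6 mice. The ATO library came from offspring of mice given 5000 ppb arsenic trioxide in drinking water from before mating until lactation, and the offspring stayed on it after weaning. The control library came from untreated mice. Each group had 1 library, and the labels give neither sex nor age, nor whether a library held 1 animal or a pool. All differences are ATO minus control in percentage points and set these 2 libraries side by side, with no replicate to measure the spread within a group. The question of the study was which hippocampal methylation differences accompany early-life arsenic exposure.

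The shallow cytosines held 1619711 calls in the ATO library and 1605156 in the control, which is 1.09% and 1.18% of each library's calls. Mean coverage was 2.07 reads in the ATO library and 2.05 in the control. A further 1952605 autosomal cytosines had 1 to 4 reads in the ATO library and none in the control, and 1764202 had 1 to 4 reads in the control and none in the ATO library. A second group fell outside because the other library was deeper. It held 175771 cytosines shallow in the ATO library alone and 196025 shallow in the control alone.

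Methylation of the shallow cytosines was 57.4% in the ATO library (exact 95% interval 57.3 to 57.5) and 58.9% in the control (58.9 to 59.0), a difference of -1.51 points. Deep cytosines, those with at least 10 reads in both libraries, had 39.7% in the ATO library and 41.1% in the control. The shallow level was thus 17.7 points above the deep level in the ATO library and 17.9 points above it in the control. On the forward strand alone, which held few of the deep cytosines, the gap was 5.62 points in the ATO library and 6.49 points in the control, and on the reverse strand it was 16.7 and 16.9 points. Shallow cytosines were lower in the ATO library on both strands. The forward strand read 59.9% in the ATO library and 61.5% in the control, and the reverse strand 55.7% and 57.3%. The strand differences, -1.51 and -1.56 points, were closer to each other than those of deep cytosines, at -0.64 points on the forward and -1.38 points on the reverse strand. Cytosines at the limit of the rule, with 4 reads in both libraries, had 49.9% in the ATO library and 50.5% in the control. Those just outside it, with 5 reads in both, had 48.5% in the ATO library and 49.5% in the control.

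Shallow coverage did not mean remote from the captured DNA. The median distance to the nearest cytosine with at least 10 reads in either library was 163 bp, and 462037 shallow cytosines (59.1%) lay within 300 bp of one. Only 250109 (32.0%) lay 1000 bp or more away, and 69668 (8.91%) lay 10000 bp or more away. The set as a whole is therefore called shallow and not off-target, and the bait positions were not used here. Strand use changed with distance. The reverse strand held 95.3% of deep cytosines, 82.4% of shallow ones at 51 to 100 bp, 57.3% at 301 to 999 bp and 50.5% at 10000 bp or more. Among these classes, the strands were closest to equal in the remote cytosines.

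Shallow cytosines farther from deep ones were more methylated. The distance classes leave out cytosines on the opposite strand of a CpG with at least 10 reads in either library. Those had 40.1% in the ATO library and 41.5% in the control. The other shallow cytosines at 1 to 50 bp had 23.1% in the ATO library and 23.9% in the control. At 101 to 300 bp the levels were 56.5% in the ATO library and 58.5% in the control, and at 301 to 999 bp they were 73.3% and 74.5%. At 1000 to 9999 bp the ATO library had 81.1% and the control 82.9%. At 10000 bp or more the ATO library had 83.6% (exact 95% interval 83.4 to 83.8) and the control 85.0% (84.8 to 85.2). Both strands followed the same course, and the gap between libraries was small beside that between distances. The 17.7-point and 17.9-point gaps to the deep level were therefore sums over unlike cytosines. Within 300 bp, with those opposite-strand cytosines included, the shallow level was 3.24 points above the deep level in the ATO library. In the control it was 3.59 points above it. For cytosines 1000 bp or more away the gaps were 42.1 and 42.4 points.

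**Figure D1:**
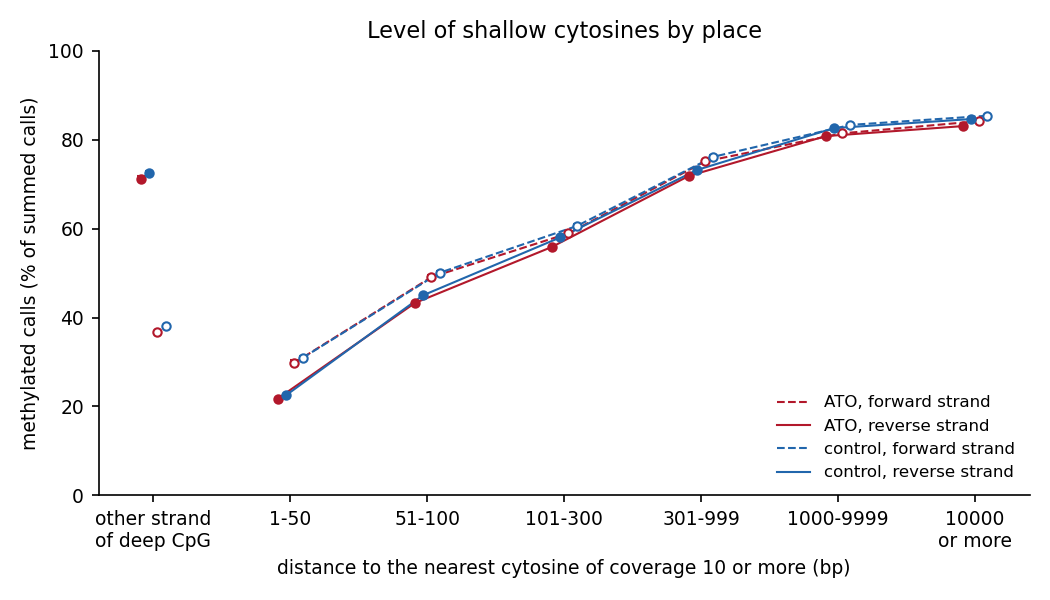
Level of shallow cytosines (percent of summed calls methylated, vertical axis) by distance in bp to the nearest cytosine of coverage 10 or more. The opposite strand of a deep CpG stands apart at the left and is not in the distance classes. Filled circles are the reverse and open circles the forward strand, red is ATO and blue control, and bars are exact 95% intervals of counting error. Over both strands the level is 23.1% (ATO) and 23.9% (control) at 1 to 50 bp and 83.6% (ATO) and 85.0% (control) at 10000 bp or more, and the red points lie just under the blue ones throughout.

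In every distance class the ATO library was the lower. The difference was -0.80 points at 1 to 50 bp, where methylation was lowest, -1.59 points at 51 to 100 bp and -2.00 points at 101 to 300 bp. It was -1.20 points at 301 to 999 bp, -1.85 points at 1000 to 9999 bp and -1.40 points at 10000 bp or more. The normal-approximation 95% interval of each of these differences lay below 0, and the one nearest to 0 ran from -1.06 to -0.53 points (1 to 50 bp). Among remote cytosines, 18.2% of calls were unmethylated in the ATO library and 16.5% in the control. These sums do not show that a class was affected more than another, since levels are bounded at 0 and 100%.

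A separate group of 110974 shallow cytosines (14.2%) was the opposite strand of a CpG with at least 10 reads in either library, and 101288 of these were forward cytosines beside a deep reverse one. Both strands of a CpG are usually methylated alike, because the maintenance methyltransferase copies the mark onto the new strand after replication. At 89683 forward cytosines whose reverse partner had at least 10 reads in both libraries, the level was 36.6% in the ATO library and 38.1% in the control. Their deep partners, weighted by the same shallow coverage, had 35.3% in the ATO library and 36.6% in the control. The shallow strand was thus 1.35 points above its partner in the ATO library and 1.42 points above it in the control, and the library difference was alike on the shallow strand (-1.42 points) and the deep one (-1.35 points). Where the partner was at 10% or less, the shallow strand read 5.10% in the ATO library and 5.31% in the control, against 2.47% and 2.55% on the deep strand. Where the partner was above 90%, the shallow strand read 93.9% in the ATO library and 94.4% in the control, against 95.6% and 95.9%. Partly methylated CpGs, at 20 to 80% on the deep strand, had 52.6% in the ATO library and 56.1% in the control on the shallow strand, a difference of -3.43 points. The difference on the deep strand in that class was -3.79 points. Classes were set by the partner's mean over both libraries, which held the partner's level within its class but not the shallow strand's. The gaps between strands in the lowest and highest classes are therefore no measure of a strand difference.

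Repeated reads of a library at a remote shallow cytosine mostly gave the same call. Among cytosines 1000 bp or more from deep ones, 113165 had 2 reads in the ATO library and 109195 in the control. The 2 reads disagreed at 2.45% of these in the ATO library and at 2.64% in the control. Calls taken from different libraries at the same cytosines disagreed far more often, at 20.7% for those with 2 ATO reads and 20.5% for those with 2 control reads. Coverage 4 had the same even pattern. In the ATO library 19.5% of such cytosines had 2 methylated calls, against 1.81% with 1 and 3.80% with 3, and in the control 18.3% had 2, against 1.67% with 1 and 4.21% with 3. Within 300 bp of deep cytosines the contrast was smaller. At coverage 2 there, reads disagreed at 7.94% of cytosines in the ATO library and 7.96% in the control, against 17.7% and 17.4% for calls from different libraries. At coverage 3 over all shallow cytosines, pairs of reads disagreed at 15.4% within the ATO library and 15.1% within the control, against 19.4% and 19.6% between libraries. Whether overlapping read mates or duplicates were counted more than once is not given in the sources used here and was not tested. Intervals based on calls treat each call as separate and would be too narrow if some were not. With each pair counted once, the shallow level was 58.2% in the ATO library (95% interval 58.1 to 58.3) and 59.7% in the control (59.6 to 59.8). The difference was -1.48 points (-1.62 to -1.34). These intervals still take neighbouring cytosines of a fragment as separate, and 3 reads give fractional calls under this counting. They are therefore approximate and may be too narrow.

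**Figure D2:**
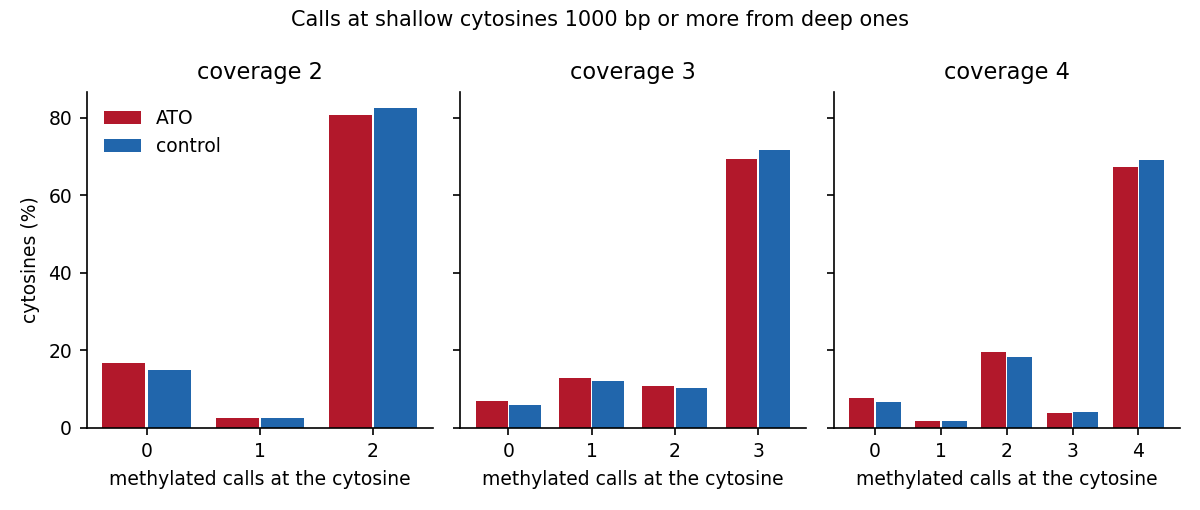
Percent of remote shallow cytosines (1000 bp or more from deep ones, vertical axis) by the number of methylated calls (horizontal axis) at coverages 2, 3 and 4, with ATO bars in red left of control bars in blue. At coverage 2 the bar for 1 methylated call stands at 2.45% (ATO) and 2.64% (control), and at coverage 4 the bar for 2 methylated calls stands above those for 1 and 3.

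The size of the library difference moved with coverage. In the ATO library, remote cytosines with 1 read had 84.0% and those with 2 reads 82.0%. In the control the values were 85.5% and 83.8%. This held at the same cytosines too. At 38332 remote cytosines with 2 reads in the ATO library and 1 in the control, the ATO library had 81.5% and the control 86.3%, a difference of -4.81 points. At 33872 with 1 read in the ATO library and 2 in the control, the ATO library had 84.5% and the control 83.5%, a difference of 0.99 points. The library with a single read was the higher in both cases. The mean of these 2 differences was -1.91 points. With 3 or 4 reads against 1 the signs were the same, but without a single read the course was mixed. At 3 against 2 reads the remote difference was -0.53 points with more ATO reads and -2.58 points with more control reads. At 4 against 2 reads it was -1.87 and -1.86 points, and at 4 against 3 it was -2.21 and 0.26 points, in the same order. Where both libraries had 1 read, at 38405 remote cytosines, the ATO library had 83.7% and the control 85.0%, a difference of -1.36 points. Over all shallow cytosines with 1 read in both, 112767 in number, the ATO library had 66.8% and the control 68.0%, a difference of -1.17 points. Cytosines with 2 reads made up 45.2% of remote ones in the ATO library and 43.7% in the control. At all cytosines with equal coverage in the libraries the difference was -1.51 points for the 100851 remote ones and -1.18 points for the 289194 of the whole shallow set.

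**Figure D3:**
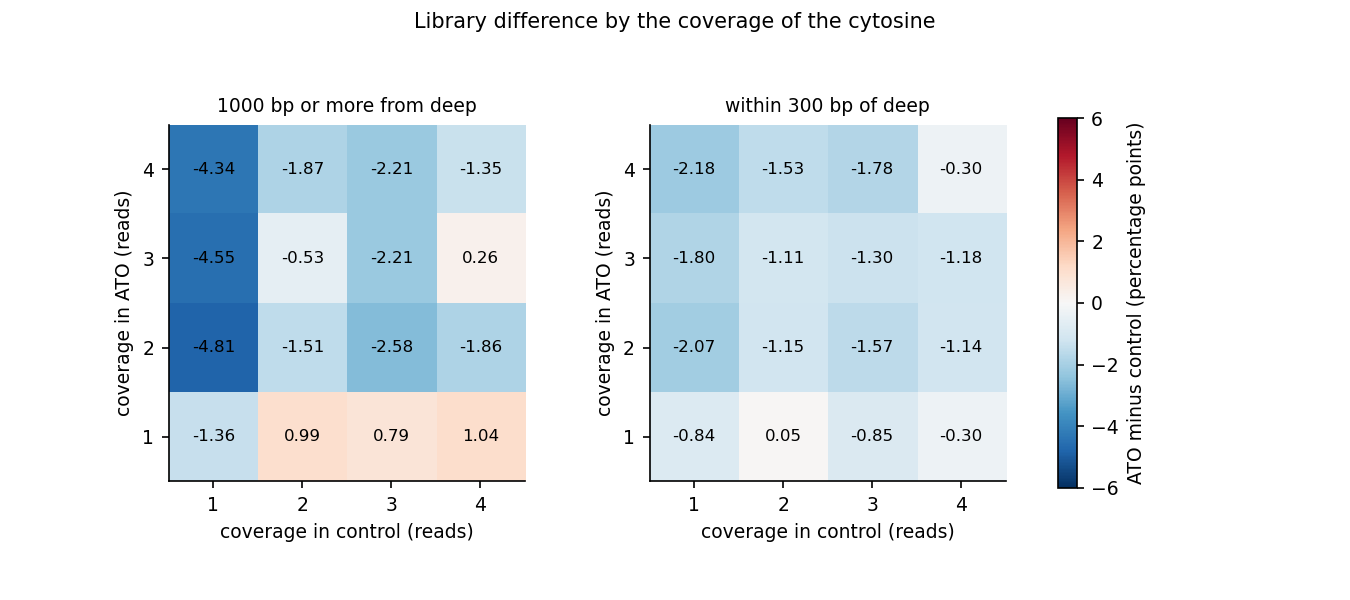
ATO minus control in percentage points (colour and printed value) by the number of reads in the control (horizontal axis) and in the ATO library (vertical axis), for cytosines 1000 bp or more from deep ones (left) and within 300 bp of them (right). Among remote cytosines the column with 1 control read is the lowest at 2 or more ATO reads (-4.81 points at 2 ATO reads), and the row with 1 ATO read holds positive values at 2 or more control reads (0.99 points at 2).

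Calls at the same cytosine agreed between libraries about as often as between strands within a library. At 18590 CpGs with both strands in the shallow set, forward and reverse calls agreed at 81.4% in the ATO library and 82.1% in the control. ATO and control calls agreed at 81.6% on the forward and 81.9% on the reverse strand. With the same mean levels and no shared pattern over CpGs, agreement would have been between 52.3% and 52.8%. Since reads of different libraries are separate, the covariance of their levels measures how much cytosines truly differ, free of counting error. By this measure the SD of the level between cytosines was 39.6 points within 300 bp of deep cytosines, 18.7 points at 1000 bp or more and 37.3 points in the deep set. Remote cytosines were thus more uniform in level. Of 38405 remote cytosines with a single read in each library, 28494 were methylated in both and 2105 in neither. There were 3641 methylated only in the ATO library and 4165 methylated only in the control.

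Pooling remote shallow cytosines in 500-bp bins with at least 10 calls in each library gave 5508 bins, and most were highly methylated. A mean level of 90% or more was found in 3507 of them (63.7%), with 96.7% in the ATO library and 97.1% in the control. Bins under 20% numbered 115 (2.09%) and had 6.50% in the ATO library and 6.63% in the control. The 260 bins between 40 and 60% had 48.7% in the ATO library and 54.0% in the control. That difference, -5.25 points, was the largest of the level classes. It was -1.92 points in the 148 bins at 20 to 40%, -2.54 points in the 638 at 60 to 80% and -1.56 points in the 840 at 80 to 90%. Bins near either end of the scale have less room to differ, and no intervals are given for these class differences. Their order therefore does not show that bins of middle level were affected more than others. The minimum of 10 calls favours bins with more reads or more CpGs, and bins were not tested one by one.

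Each of the 19 autosomes had the lower shallow level in the ATO library. Differences lay between -2.22 points on chromosome 4 and -0.99 points on chromosome 19, with a mean of -1.49 ± 0.40 points (SD over 19 chromosomes of the same 2 libraries). The counting error of a chromosome's difference had a median SE of 0.24 points. Like the SE for remote cytosines below, it takes neighbouring cytosines and repeated reads as separate and may be too small. On chromosome 4 the ATO library had 56.0% and the control 58.3%, and on chromosome 19 the ATO library had 54.4% and the control 55.4%. The difference was negative on every autosome on the forward strand (-2.76 to -0.67 points) and on the reverse strand (-2.24 to -0.70 points). For remote cytosines alone all 19 differences were negative too, the lowest on chromosome 9 at -2.50 points and the highest on chromosome 14 at -0.82 points, with a median counting SE of 0.32 points. Chromosome 17 had the smallest deep difference, -0.38 points, beside -1.16 points at all shallow and -2.08 points at remote shallow cytosines. Over the 19 chromosomes, which share their libraries, the deep difference correlated with that of all shallow cytosines at r = 0.44 (rho = 0.29). With that of remote ones it correlated at r = -0.01 (rho = -0.02). The remote differences had an SD of 0.46 points over chromosomes, not far above their counting SE, which limits what their correlation can show.

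**Figure D4:**
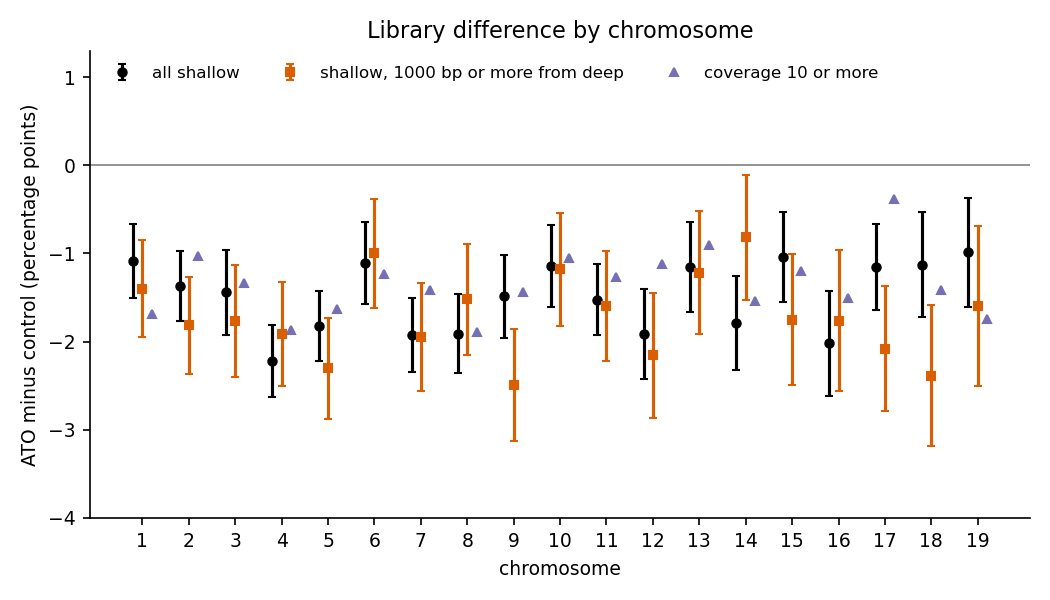
ATO minus control in percentage points (vertical axis) for each autosome (horizontal axis). Black circles are all shallow cytosines, orange squares those 1000 bp or more from deep ones, both with normal-approximation 95% intervals of counting error, and purple triangles are deep cytosines. All points lie below 0, with the shallow ones between -2.22 and -0.99 points.

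Levels differed between chromosomes largely as the share of remote cytosines did. Chromosome 11 had the lowest shallow level, 53.6% in the ATO library and 55.1% in the control, and the smallest share of cytosines 1000 bp or more from deep ones, 26.0%. Chromosome 16 had the highest, 60.5% in the ATO library and 62.5% in the control, with a share of 35.2%. Across chromosomes the control level and this share correlated at r = 0.92 (n = 19). Remote cytosines alone spanned a narrow range, from 81.0% to 82.7% in the ATO library and from 82.8% to 84.3% in the control. The spread of the shallow level between chromosomes, an SD of 2.02 points in the ATO library and 2.05 in the control, fell to 0.60 and 0.52 points for remote cytosines.

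Shallow cytosines fell in 2417 windows of 1 Mb, with medians of 529 calls in the ATO library and 523 in the control. Windows averaged 63.5% (SD 12.9) in the ATO library and 64.9% (SD 12.8) in the control, and 1568 of them (64.9%) were lower in the ATO library. Windows were tested on at most 1 cytosine per 300 bp and strand, and 1404 had at least 200 such calls in each library. Over all shallow calls of these windows, not the thinned ones, the median difference was -1.65 points (SD 3.26, range -13.3 to 9.92 points). By that measure 987 (70.3%) were lower in the ATO library. Fisher's exact test with Benjamini-Hochberg adjustment called 1 window (0.0712%), lower in the ATO library, and 0 higher ones. At an unadjusted p under 0.05 by the same test there were 118 windows (8.40%), 107 lower and 11 higher. With the median difference over windows removed, a normal-approximation test gave 86 such windows, 45 lower and 41 higher. The same test on deep cytosines called 53.7% of 2398 windows, 49.1% lower and 4.55% higher, but with many more calls per window. In the thinned calls, the spread of the shallow windows' differences was 1.05 times that given by binomial counting error in mean square. The median SE of that error was 3.37 points per window. That error neither counts pairs of reads once nor uses that the same cytosines are read in both libraries.

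The called window lay on chromosome 12, 106000001 to 107000000 (mm9). Its 612 shallow cytosines had 60.6% in the ATO library (exact 95% interval 57.9 to 63.3; 1295 calls) and 67.3% in the control (64.7 to 69.9; 1292 calls), a difference of -6.72 points. The thinned calls differed by -12.2 points (Fisher's exact test, adjusted p = 0.00591). Its remote cytosines, which are part of its shallow ones and so no separate check, had 77.6% in the ATO library and 85.4% in the control. The 2049 deep cytosines of the window were closer between libraries, with 67.8% in the ATO library and 69.9% in the control. With each pair of reads counted once, 0 windows were called by Fisher's exact test, and 24 of 937 had an unadjusted p under 0.05. Over all its cytosines the chromosome 12 window then had 61.5% in the ATO library and 68.2% in the control, a difference of -6.71 points. The test used thinned calls (Fisher's exact test, adjusted p = 0.744), and their difference under this counting is not given here. Of the windows higher in the ATO library, the 3 with the largest differences were not called. The window at chromosome 6, 32000001 to 33000000, had 65.4% in the ATO library and 55.5% in the control. That at chromosome 14, 46000001 to 47000000, had 61.2% in the ATO library and 51.4% in the control. That at chromosome 9, 29000001 to 30000000, had 66.8% in the ATO library and 57.4% in the control. Those levels are over all calls, and the thinned calls that were tested differed by 5.41, 4.19 and 4.81 points in the same order of windows. Fisher's exact test gave them adjusted p-values of 0.803 to 0.841. No annotation of mm9 was used here, so the genes in these windows are not given.

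**Figure D5:**
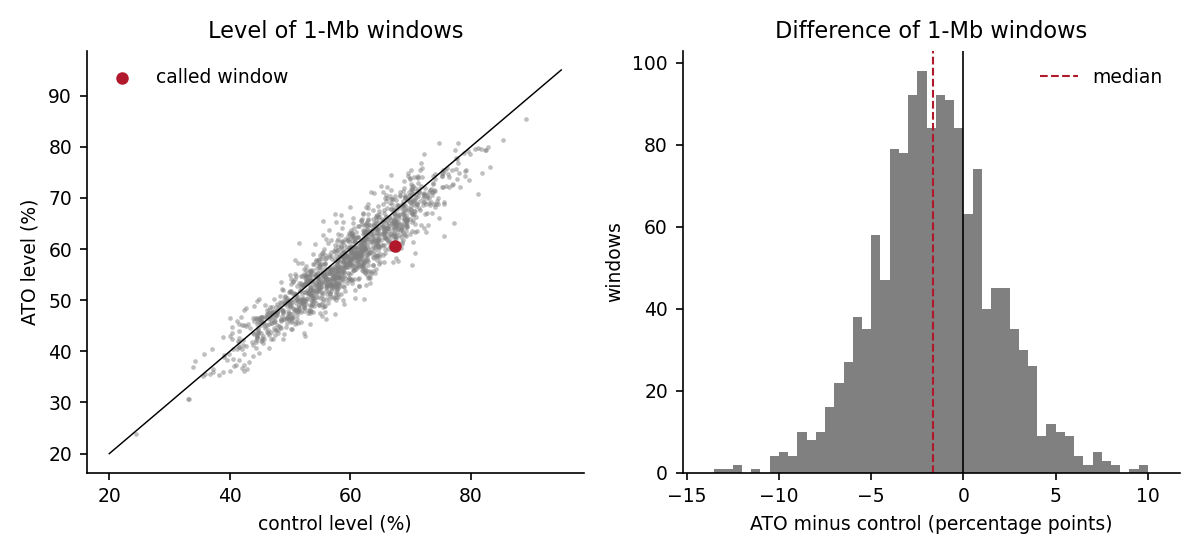
Left, level of shallow cytosines in 1404 windows of 1 Mb, with ATO (vertical axis, %) against control (horizontal axis, %), the line of equal levels, and the called window in red. Right, number of windows by ATO minus control in percentage points, with 0 as a solid line and the median, -1.65 points, dashed. The points run along the line with most below it, as 987 of 1404 windows were lower in the ATO library.

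Windows of low level were low in both libraries, and across the 1404 tested windows the levels correlated at r = 0.93. Among windows with at least 1000 shallow calls in each library, the lowest lay on chromosome 2, 74000001 to 75000000, with 23.9% in the ATO library (exact 95% interval 21.6 to 26.4) and 24.4% in the control (22.1 to 26.8). There 14.9% of the shallow cytosines were remote, and these had 77.2% in the ATO library and 84.0% in the control. Windows at chromosome 15, 102000001 to 103000000, and chromosome 6, 52000001 to 53000000, both had 30.7% in the ATO library and had 33.1% and 33.3% in the control. Windows at chromosome 5, 34000001 to 35000000, and chromosome 2, 180000001 to 181000000, had 35.2% and 37.0% in the ATO library and 35.5% and 33.9% in the control. The highest lay on chromosome 13, 62000001 to 63000000, with 74.7% in the ATO library and 76.2% in the control. There 19.3% of the shallow cytosines were remote, and the deep cytosines had 41.6% in the ATO library and 42.7% in the control. Its neighbour in rank, at chromosome 17, 85000001 to 86000000, had 70.9% in the ATO library and 72.2% in the control. The other windows of the top 5, on chromosomes 12, 6 and 13, had between 68.0% and 71.9% in the ATO library and between 68.9% and 73.0% in the control. None of these 10 windows was called between the libraries by Fisher's exact test.

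The difference was spread over windows of all levels. Windows with a mean level under 50%, 239 in number, averaged 44.7% in the ATO library and 45.8% in the control, a mean difference of -1.06 ± 2.76 points (SD). The 564 windows between 50 and 60% differed by -1.92 ± 3.19 points, the 475 between 60 and 70% by -1.43 ± 3.48 points and the 118 between 70 and 80% by -1.12 ± 3.52 points. In each of these classes the SD between windows exceeded the mean difference. The 8 windows at 80% or more were all lower in the ATO library, by -2.69 ± 1.05 points. Remote levels in windows with at least 200 remote calls, 1052 in number, averaged 81.3% (SD 5.17) in the ATO library and 83.1% (SD 5.17) in the control. Their control levels were unrelated to those of the deep cytosines of the same windows (r = 0.02), whereas the control levels of all shallow cytosines followed them (r = 0.52 over 1404 windows).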

How the data were processed

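DNA methylation was read by bisulfite sequencing of SureSelectXT Mouse Methyl-Seq libraries, 1 ATO and 1 control. Bismark 0.19.0 with Bowtie2, bcl2fastq and the mm9 build are listed in the submitters' processing notes. How reads were trimmed, and how duplicates and overlapping mates were handled, is not given there. Per the file headers, coverage is a raw count of reads per CpG cytosine and strand, and C and T are a percent of that coverage, deposited with 2 decimals. Methylated calls were recovered as coverage times percent C, whole at 100% of cytosines within rounding (0.005 points).

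The libraries held 147924810 (ATO) and 135987272 (control) calls. Levels are shares of summed calls with exact (Clopper-Pearson) 95% intervals, which are approximate where pairs were counted once. Differences have normal-approximation intervals. Both cover counting error only. Windows of 1 Mb with at least 200 thinned calls per library were tested between libraries (Fisher's exact test, two-sided), with p-values adjusted by Benjamini-Hochberg over 1418 windows of the autosomes, X and Y. The test was checked on simulated independent calls over 1418 windows. It called 54 of 100 windows lowered by 10 points, 99 of 100 lowered by 20 points and 4 of 1218 unchanged ones. Repeated reads of a cytosine within a library agreed more often than calls from different libraries, which the simulation leaves out. Its rates may therefore not hold for the real windows. The test compares 2 libraries, not conditions. The windows named are up to 5 called per direction by size (3 uncalled ones where none was called) and the 5 lowest and 5 highest in level with at least 1000 calls per library.

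The members and tests were chosen with earlier results of these data known, and the distance classes other than the 1000 and 10000 bp minimums, the counting of pairs and the comparison at equal or swapped coverage were added after these data were seen. Python 3.11.15, scipy 1.17.1, pandas 2.3.3 and matplotlib 3.10.9 were used.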

Additional observations from a re-analysis of the deposited data

How the results depend on the processing

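The ATO library was the lower overall (-1.51 points) in 13 of 13 alternatives. It was -1.17 points at coverage 1 in both libraries, -1.34 points at 1 to 2, -1.34 points with each cytosine weighted alike and -1.18 points at equal coverage. It was -1.81 points with at most 1 cytosine per 300 bp and strand, -1.72 points at 1000 bp or more from deep cytosines and -1.40 points at 10000 bp or more. With coverage 1 to 4 judged in each library by itself it was -0.44 points, where the libraries no longer share their cytosines. The other 5 stayed within its interval. All 13 alternatives draw on the same 2 libraries and most share calls, so their common sign is not separate support. The shallow level minus the deep level, 17.7 points in the ATO library and 17.9 points in the control, was 17.3 and 17.5 points against coverage 20 or more, 22.6 and 22.7 points with each cytosine weighted alike, 16.7 and 16.9 points on the reverse strand and 5.62 and 6.49 points on the forward strand. It was 42.1 and 42.4 points at 1000 bp or more from deep cytosines and 3.24 and 3.59 points within 300 bp.

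The count of called windows, 1 by Fisher's exact test, was 0 at coverage 1 to 3, with 1 cytosine per 1000 bp, in windows of 500 kb, at 1000 bp or more from deep cytosines (only 19 windows could be tested), with the median difference removed (normal approximation) and with pairs of reads counted once. The windows tested differed in number between settings. In the same order, 67 of 1093, 111 of 1258, 96 of 1340, 4 of 19, 86 of 1404 and 24 of 937 had an unadjusted p under 0.05. The count of called windows was 4 of 656 with at least 400 calls and 25 of 1893 at coverage 1 to 9. It was 76 of 1904 with all calls (70 lower, 6 higher), where neighbouring cytosines all count. Of 68 values of the named windows under alternatives, 64 kept their side of the threshold, 3 lost it, 1 gained it and 0 reversed a call. Most of these values are of windows not called in the main test, so the count says little about how stable a call is. The 3 losses were all of the called window on chromosome 12 (-6.72 points). They came at coverage 1 to 3 (-7.64 points), on the forward strand (-4.97 points) and with pairs counted once (-6.71 points). These chromosome 12 differences are over all calls of each setting, not the thinned calls that those tests used. The 1 gain was the chromosome 14 window with all calls. Except for the number of calls or windows that a setting leaves, the cause was not tested. Pair counting, equal coverage and the 300-bp limit were added after seeing the data. Animals could not be paired, because each group has 1 library. The same cytosines were read in both libraries, but the window test did not use that pairing.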

Other observations

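Shallow cytosines of the X chromosome, chosen by the same coverage limits, numbered 18078, with 54.5% in the ATO library (exact 95% interval 54.0 to 55.0) and 56.5% in the control (56.0 to 57.0). The 6272 of them that lay 1000 bp or more from deep cytosines had 79.6% in the ATO library and 81.5% in the control. On the Y chromosome 195 cytosines had 73.4% in the ATO library (68.7 to 77.8; 380 calls) and 80.1% in the control (75.7 to 84.0; 377 calls), and their intervals overlapped. On unplaced contigs 2888 cytosines had 62.7% in the ATO library and 64.1% in the control. Autosomal cytosines with 1 to 4 reads in only 1 library had 67.4% where the ATO library alone listed them and 68.4% where the control alone did. Those are different cytosines, of which 57.2% and 55.5% lay 1000 bp or more from deep ones.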
